A study of Bos taurus with 38 samples.

Results

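Of 12543 genes listed at the end of both periods in rumen papillae of Holstein Friesian bulls, 82 (0.654%) were lower in feed-restricted bulls than in ad libitum bulls at the end of Period 1 and higher in previously restricted bulls at the end of Period 2 than in restricted bulls at the end of Period 1. The members were chosen from group means of log2(value + 1), where a value gives a gene's reads as CPM of a library size that was scaled by the trimmed mean of M-values (TMM). A member had a RES minus ADLIB difference of -0.4 or less at the end of Period 1, a RES Period 2 minus RES Period 1 difference of at least 0.4 and a mean value over all 38 bulls below 500, and 8 identifiers were left out by name. At these thresholds 227 genes were lower in restriction, 284 were higher after re-alimentation and 90 were both. Of the 90, 2 had a mean value over the limit and 6 were among the identifiers left out. The mirrored thresholds (higher in restriction, lower after re-alimentation) were met by 171 genes.

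RNA was sequenced from 1 sample of rumen papillae per bull, and different bulls were sampled in the 2 periods. All bulls were male and received 70% concentrate and 30% grass silage. RES bulls were fed in Period 1 for a growth of 0.6 kg per day over 125 days. They were sampled then (n = 9), or after a further 55 days at the end of Period 2 (n = 10). Per the methods of the study, those days began with a transition that built RES bulls up to ad libitum intake. Ad libitum access followed. ADLIB bulls had ad libitum access throughout and were sampled at the same 2 times (n = 9 and n = 10). The extraction text of the labels names muscle, while their tissue field gives rumen epithelium. Markers of epithelium, muscle or immune cells could not be looked up because 0 of the 12802 identifiers could be paired with a symbol, and the roles of the members are for the same reason not given. In bulk tissue, fewer cells of a type and less RNA per cell cannot be told apart.

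Papillae are the finger-like folds of the rumen wall. Their stratified epithelium takes up the short-chain fatty acids made by the rumen microbes and forms a barrier to the rumen contents. Cattle that return to free feeding after a period of restriction often grow faster than animals of the same age that were never restricted, which is known as compensatory growth, and the rumen wall is one of the tissues that respond to the amount of feed.

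The group means of C1 (ADLIB, Period 1), R1 (RES, Period 1) and R2 (RES, Period 2) chose the members, so the size of the fall and of the later rise is a description and supports nothing further. Across the 82 members the R1 minus C1 difference ran from -2.20 to -0.41 on the log2(value + 1) scale with a median of -0.55, beside a median of -0.0015 over the 12543 genes. The R2 minus R1 difference ran from 0.40 to 1.95 with a median of 0.64, beside 0.0042 over all genes. On the recovered reads the smallest fitted rise among the members was -0.046 with the edgeR quasi-likelihood test, where 81 members were higher and 1 lower, and 0.010 with DESeq2 and 0.0098 with the edgeR exact test, where all 82 were higher. The smaller of the 2 differences was at least 0.5 in 43 members, at least 0.7 in 13 and at least 0.9 in 3. For the 3 members nearest the thresholds it was 0.4029, 0.4038 and 0.4072, and for the 3 genes just outside it was 0.3981, 0.3985 and 0.3997.

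The differences were of about the size of the spread between bulls. The pooled within-group SD of log2(value + 1) ran from 0.28 to 2.58 over the members with a median of 0.53, beside 0.26 over all genes, and it was above that median in all 82 members. The fall in restriction was larger than the member's own within-group SD in 52 members, the rise in RES bulls in 62, and both in 49. The members had a median of 14 to 1296 reads per bull, and 1 member had no read in 1 bull. The median of these medians was 73.8, beside 180.5 over all genes. In 30 members (36.6%) the median was under 50 reads, beside 21.3% of all genes. The number of reads on a gene also depends on the length of its transcript. Levels are therefore compared below only within a gene, apart from the reads of called and other members.

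In the comparison of RES with ADLIB at the end of Period 1, 0 of the 82 members had an adjusted p below 0.05 (limma, Benjamini-Hochberg over 12626 genes), where 0.0% of all genes were called lower. At an unadjusted p below 0.05, 58 members were lower, beside 4.61% of all genes. With tests on the recovered reads, 12 members were called by DESeq2 and 11 by the edgeR exact test, beside 0.182% and 0.111% of all genes called lower, and 0 by the edgeR quasi-likelihood test, beside 0.0%. In RES bulls over time, 26 members were called higher in Period 2 with limma, beside 0.822% of all genes, and 68 had an unadjusted p below 0.05, beside 7.7%. DESeq2 called 42 members, beside 1.74% of all genes, the exact test 41, beside 1.14%, and the quasi-likelihood test 27, beside 0.822%. These counts belong to the contrasts that chose the members and nothing is read from them.

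The 26 members called in RES bulls over time had rises of 0.58 to 1.31, while the largest rise among the other 56 was 1.95. The called members had a median of 177 reads per bull, and the others 63.8, counts that also depend on transcript length. The median R1 minus C1 differences of the called and the other members were -0.54 and -0.57.

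The member with the largest smaller difference was ENSBTAG00000013831. Its values ran from 22.3 to 266 with a median of 42.5 in ADLIB bulls at the end of Period 1, and from 1.52 to 31.8 with a median of 10.7 in RES bulls. At the end of Period 2 they ran from 18.8 to 141 with a median of 29.9 in ADLIB bulls, and from 4.49 to 176 with a median of 40.0 in RES bulls. The RES Period 1 bulls were the lowest group, but their upper values overlapped with the lower values of the other 3 groups. The differences of the log2 means were -2.20 (R1 minus C1) and 1.95 (R2 minus R1). At the end of Period 2, RES bulls differed from ADLIB bulls by -0.03 (SE 0.56, limma adjusted p = 0.996), and ADLIB bulls differed over time by -0.22 (SE 0.45, limma adjusted p = 0.985).

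The next by the same rule was ENSBTAG00000015129. Its values ran from 2.22 to 45.3 (median 7.79) in ADLIB and from 1.49 to 18.2 (median 2.88) in RES bulls at the end of Period 1, and from 2.05 to 57.9 (median 11.4) in ADLIB and from 1.44 to 64.2 (median 9.60) in RES bulls at the end of Period 2. All 4 groups overlapped over most of their ranges, and the lowest value of all was that of a RES Period 2 bull. The differences were -0.98 (R1 minus C1) and 1.19 (R2 minus R1). RES bulls differed from ADLIB bulls at the end of Period 2 by 0.11 (SE 0.56, limma adjusted p = 0.988), and ADLIB bulls over time by 0.10 (SE 0.52, limma adjusted p = 0.996).

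In 2 members the bulls fell largely into separate high and low values rather than a continuous range, with 1 bull in between in the second. These 2 members were singled out after their values were seen. In ENSBTAG00000006963 no bull lay between 10.2 and 126, a gap of 3.49 log2 units, with 25 bulls above it and 13 below. The bulls above it were 7 of 9 ADLIB and 5 of 9 RES bulls at the end of Period 1, and 6 of 10 ADLIB and 7 of 10 RES bulls at the end of Period 2. Both kinds of bull occurred in every group. The high values ran from 163 to 331, from 135 to 334, from 142 to 212 and from 126 to 326 in these groups, and the low values from 3.93 to 5.44, from 4.80 to 8.17, from 4.31 to 10.2 and from 7.11 to 7.64. The high values overlapped between the 4 groups, while the low values of ADLIB Period 1 and RES Period 2 bulls did not overlap. The group means that chose this gene (differences of -1.03 and 0.79) moved with the number of bulls on each side.

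ENSBTAG00000009144 had a gap of 1.31 log2 units between 15.5 and 39.8, with 23 bulls above it. These were 5 of 9 ADLIB and 5 of 9 RES bulls at the end of Period 1, and 5 of 10 ADLIB and 8 of 10 RES bulls at the end of Period 2. The high values ran from 77.7 to 220 in ADLIB and from 41.9 to 136 in RES bulls at the end of Period 1, and from 66.4 to 190 in ADLIB and from 39.8 to 214 in RES bulls at the end of Period 2. Here the lowest of the high values lay in RES bulls in both periods. The low values ran from 1.55 to 5.78 in ADLIB and from 0.746 to 4.92 in RES bulls at the end of Period 1. At the end of Period 2 they ran from 0.375 to 3.99 in ADLIB and from 0.775 to 15.5 in RES bulls. On the log2(value + 1) scale the bull at 15.5 lay at 4.04, the next low bull at 2.76 and the lowest high bull at 5.35. The count of high RES Period 2 bulls therefore depends on the side given to this bull. The median value was 77.7 in C1, 41.9 in R1, 35.2 in ADLIB Period 2 and 63.7 in R2, and this was the one member whose ADLIB Period 2 log2 mean was below the RES Period 1 mean. RES bulls differed from ADLIB bulls at the end of Period 2 by 1.57 (SE 1.00, limma adjusted p = 0.920) in this gene and by 0.60 (SE 0.90, limma adjusted p = 0.949) in ENSBTAG00000006963. On the recovered reads the first of these was only 0.40 with the quasi-likelihood test and 0.39 with both DESeq2 and the exact test. ADLIB bulls differed over time by -0.87 (SE 1.14, limma adjusted p = 0.967) and -0.85 (SE 0.94, limma adjusted p = 0.957). Without one bull these differences over time ran from -1.33 to -0.47 and from -1.37 to -0.49, and those at the end of Period 2 from 1.16 to 2.11 and from 0.24 to 0.96.

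Over all 38 bulls the 2 genes did not mark the same bulls, but in RES Period 1 they did. There, replicates 2, 5, 6, 7 and 8 were high in both genes and replicates 1, 3, 4 and 9 low in both. In each of the other groups some bulls were high in only 1 of the genes. With the bull at 15.5 counted as low in ENSBTAG00000009144, 17 of the 38 bulls were high in both, 8 only in ENSBTAG00000006963, 6 only in ENSBTAG00000009144 and 7 in neither. A gap of at least 1 log2 unit with 5 or more bulls on each side was found in these 2 members and in 13 of the 12543 genes in all (0.104%). What set the 2 kinds of bull apart was not tested.

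**Figure D1:**
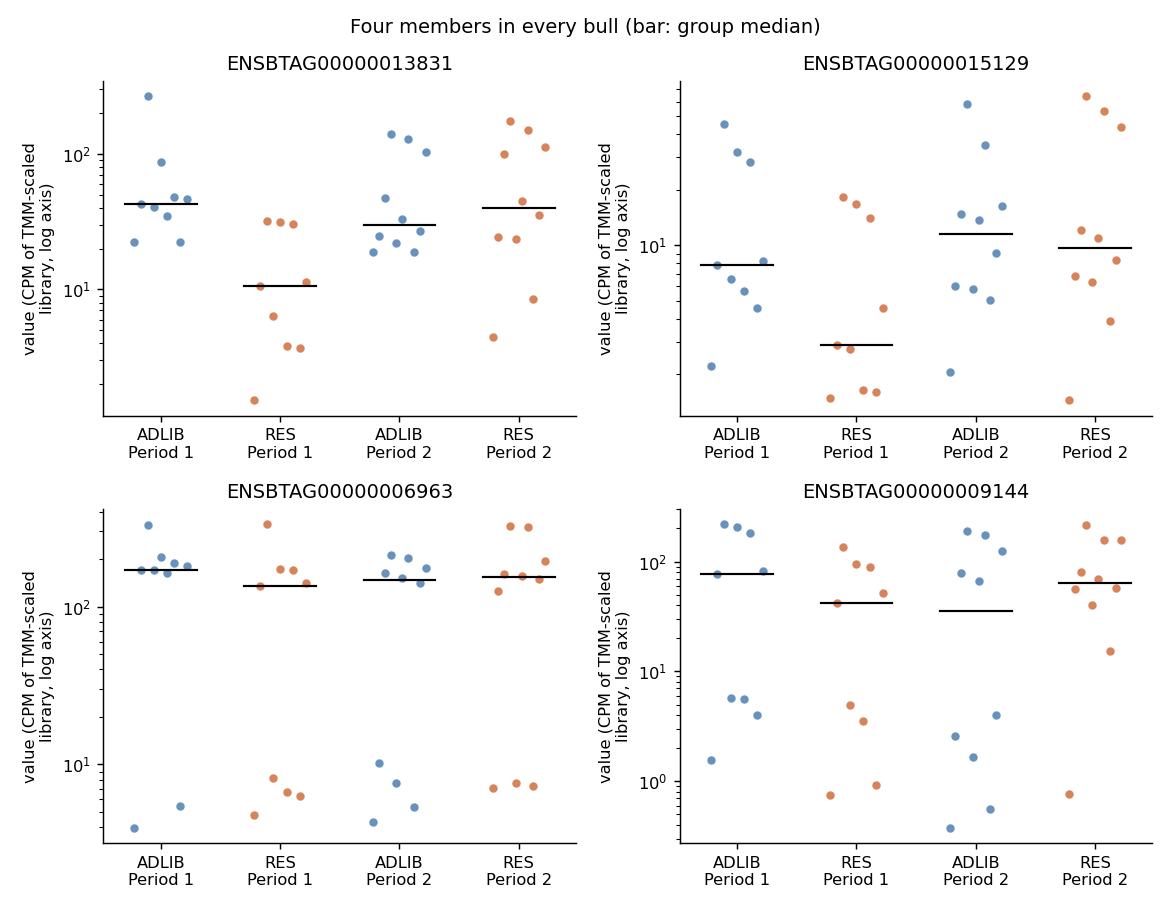
Values of 4 members in each bull, as CPM of the TMM-scaled library on a log axis, by feeding group and period, with the group median as a bar (n = 9 in each Period 1 group and n = 10 in each Period 2 group). In the upper panels the RES Period 1 bulls have the lowest group median (10.7 and 2.88) with overlap, and in the lower panels every group holds separate high and low bulls. In ENSBTAG00000009144, 1 RES Period 2 bull at 15.5 lies between them.

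The ADLIB bulls of Period 2 were the only group whose means the rule did not use. Their log2 mean was above that of RES Period 1 bulls in 81 of 82 members, beside 49.8% of all genes, and by at least 0.4 in 66 members, beside 2.44% of all genes. Across the members the difference ran from -0.10 to 1.98 with a median of 0.65, beside -0.001 over all genes. The RES Period 1 means were chosen to be low, so a difference from them is partly set by the rule. The ADLIB Period 2 mean was above the midpoint between C1 and R1 in 73 members and above the midpoint between R1 and R2 in 75, beside 49.1% and 49.7% of all genes. The RES Period 2 mean, which the rule chose to be high against R1 only, was above C1 in 52 members, beside 51.2% of all genes. RES Period 1 was the lowest of the 4 groups in 81 members, beside 30.7% of all genes. The highest group was ADLIB Period 1 in 21 members, ADLIB Period 2 in 30 and RES Period 2 in 31, beside 20.6%, 24.5% and 24.4% of all genes. The thresholds placed R1 below C1 and R2, so that R1 could not be the highest and C1 and R2 could not be the lowest group.

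**Figure D2:**
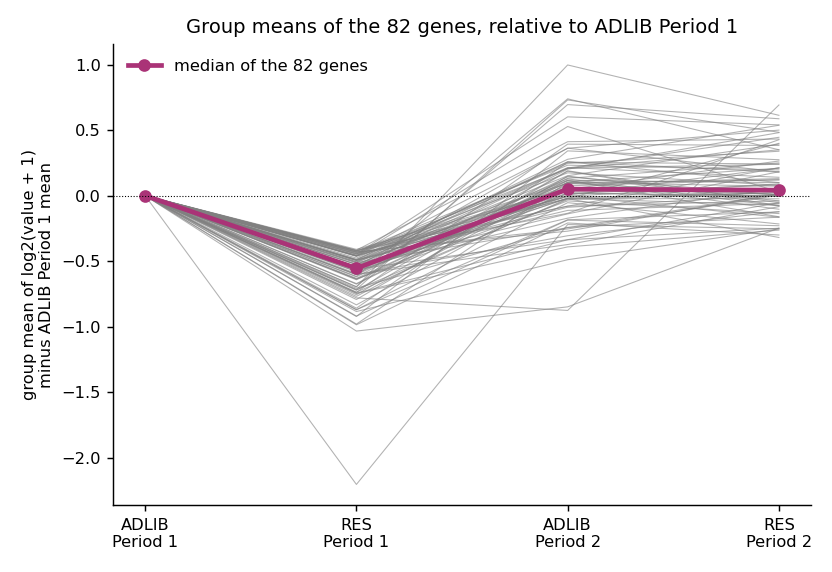
Group means of log2(value + 1) of the 82 members, each shown relative to its own ADLIB Period 1 mean, with 1 grey line per gene and the median in purple; lines join the groups of a gene and not the same bulls. The median lies at -0.55 in RES Period 1 bulls and at 0.05 in ADLIB Period 2 bulls, the group whose means did not choose the genes.

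Counted bull by bull, the separation was incomplete. In a typical member (median over the 82), 8 of the 9 RES Period 1 bulls lay below the ADLIB Period 1 median, 9 below the ADLIB Period 2 median and 9 below the RES Period 2 median, where the median over all genes was 4 of 9. The counts against ADLIB Period 1 and RES Period 2 are largely set by the rule, and those against ADLIB Period 2 in part, so they are a description. All 9 RES Period 1 bulls lay below the ADLIB Period 2 median in 42 members, beside 5.19% of all genes. Even so, in 0 members did every RES Period 1 bull lie below every ADLIB Period 1 bull, which held for 0.0% of all genes. Every RES Period 1 bull lay below every RES Period 2 bull in 1 member, beside 0.0638% of all genes, and below every ADLIB Period 2 bull in 1 other member, beside 0.0399%. In the first of these the values ran from 0.743 to 2.29 in RES Period 1 bulls and from 2.62 to 6.99 in RES Period 2 bulls. In the second they ran from 28.1 to 53.3 in RES Period 1 bulls and from 53.9 to 181 in ADLIB Period 2 bulls.

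The mean of log2(value + 1) over the 82 members was taken as a score for each bull. It ran from 3.43 to 3.93 in ADLIB bulls at the end of Period 1 (3.66 ± 0.18, SD, n = 9) and from 2.86 to 3.30 in RES bulls (3.04 ± 0.16, SD, n = 9). At the end of Period 2 it ran from 3.38 to 4.15 in ADLIB bulls (3.71 ± 0.21, SD, n = 10) and from 3.57 to 3.95 in RES bulls (3.76 ± 0.12, SD, n = 10). All 9 RES Period 1 bulls lay below every bull of the other 3 groups, although hardly any single member separated them, and the other 3 groups overlapped throughout. The lower score of RES Period 1 bulls follows from the choice of members except against the ADLIB Period 2 bulls, and there only in part. When the 2 genes with separate high and low bulls were left out, 7 of the 9 RES Period 1 bulls were below every ADLIB Period 2 bull and all 9 were below every bull of the other 2 groups.

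**Figure D3:**
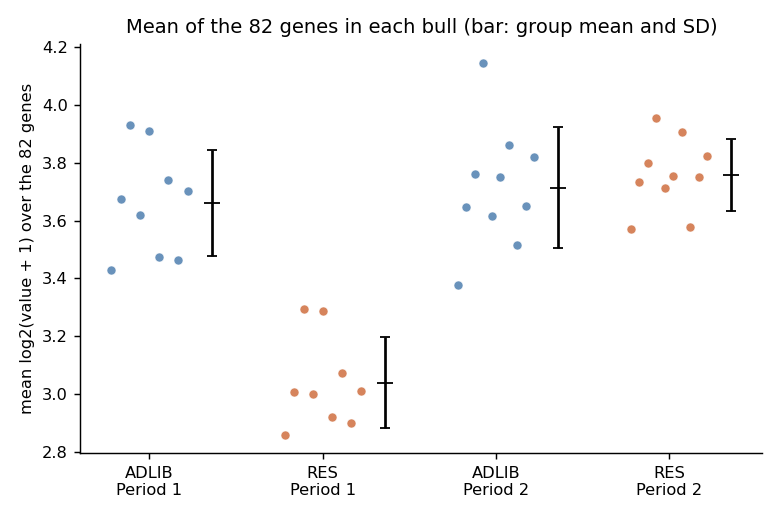
Mean log2(value + 1) over the 82 members in each bull, by group, with the group mean and SD beside the points (n = 9 in each Period 1 group and n = 10 in each Period 2 group). The RES Period 1 bulls lie between 2.86 and 3.30 and the lowest bull of the other groups at 3.38.

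The first digit of the library identifiers differs between samples and its meaning is not given in the labels. RES Period 1 had 4, 1, 1 and 3 libraries with the digits 1, 2, 3 and 4, ADLIB Period 1 had 1, 4, 2 and 2, ADLIB Period 2 had 2, 2, 2 and 4, and RES Period 2 had 3, 3, 3 and 1. Within each digit the median R1 minus C1 difference over the members was -0.70, -0.62, -0.47 and -0.56, and the median R2 minus R1 difference was 0.80, 0.83, 0.52 and 0.64. The R1 minus C1 difference was below 0 in 77, 72, 74 and 63 of the 82 members and above 0 in 5, 10, 8 and 19, with as few as 1 bull on a side. These are the differences that chose the members. With the digit as a covariate in limma their medians were -0.57 and 0.73, beside -0.55 and 0.65 without it. The part of the digit itself was not tested. The RES minus ADLIB difference at the end of Period 2 was 0.08, 0.02, -0.34 and 0.27, and the ADLIB difference over time was -0.08, 0.06, 0.35 and -0.12, with no common direction. Depth overlapped between the groups, from 7263538 to 11251230 reads on listed genes in ADLIB and from 5948453 to 11957654 in RES bulls at the end of Period 1, and from 6190228 to 11502112 and from 6099803 to 11845091 at the end of Period 2. Depth and digit were linked. Libraries with the digit 1 had 5948453 to 7349256 reads, and the lowest of all other libraries had 7788934. RES Period 1 thus held more of these shallow libraries (4 of 9) than ADLIB Period 1 (1 of 9).

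At the end of Period 2, when both groups had ad libitum access, the RES minus ADLIB difference of the members ran from -0.50 to 1.57 with a median of 0.02, beside 0.00059 over all genes. Its highest value was 0.48 with each of the 3 tests on the recovered reads. It was above 0 in 43 members, beside 50.2% of all genes, and below 0 in 39, and within 0.2 of 0 in 53, beside 86.2% of all genes. With limma 0 members were called, beside 0.0% of all 12541 genes, and 2 had an unadjusted p below 0.05, beside 4.82% of all genes in either direction. DESeq2, the edgeR exact test and the edgeR quasi-likelihood test also called 0 members and 0 of all 12541 genes (0.0%), so the count is no different from that over all genes. The SE of a member's difference ran from 0.11 to 1.00 with a median of 0.21. With this error, small differences were not detectable in a single member. This comparison shares the RES Period 2 bulls with the rule.

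The 2 members with an unadjusted p below 0.05 were both higher in RES than in ADLIB bulls at the end of Period 2. In the first, values ran from 70.6 to 153 with a median of 109 in RES bulls and from 25.2 to 119 with a median of 87.6 in ADLIB bulls, a log2 difference of 0.56 (SE 0.21, limma adjusted p = 0.920). In the second they ran from 53.6 to 142 with a median of 105 in RES bulls and from 33.3 to 128 with a median of 80.4 in ADLIB bulls, a log2 difference of 0.42 (SE 0.20, limma adjusted p = 0.920). The groups overlapped in both genes. At 0.4 or more, RES bulls were higher in 4 members, these 2 and the 2 with separate high and low bulls, and at -0.4 or less they were lower in 1 member, with a median of 122 in RES and 156 in ADLIB bulls and a difference of -0.50 (SE 0.26, limma adjusted p = 0.920).

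In ADLIB bulls, the Period 2 minus Period 1 difference of the members ran from -0.88 to 1.00 with a median of 0.05, beside -0.0026 over all genes. It was above 0 in 48 members, beside 49.1% of all genes, and below 0 in 34, and within 0.2 of 0 in 46, beside 84.2% of all genes. With limma 0 members were called, beside 0.0% of all 12526 genes, and 4 had an unadjusted p below 0.05, beside 5.73% of all genes in either direction. DESeq2 and the edgeR exact test each called 1 member, higher at the end of Period 2, beside 0.0319% and 0.024% of all genes. Its adjusted p was 0.025 with DESeq2 and 0.011 with the exact test. The quasi-likelihood test called 0, beside 0.0% of all genes. This comparison shares the ADLIB Period 1 bulls with the rule.

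A difference of at least 0.4 over time in ADLIB bulls was found in 7 members, beside 1.16% of all genes, and one of -0.4 or less in 3, beside 1.48%. The largest was in the member that separated RES Period 1 from ADLIB Period 2 bulls. In this gene the ADLIB values ran from 39.4 to 103 with a median of 52.8 at the end of Period 1 and from 53.9 to 181 with a median of 116 at the end of Period 2, a log2 difference of 1.00 (SE 0.22, limma adjusted p = 0.572). Its unadjusted limma p of 0.000137 was the smallest among the members in this comparison. The RES values ran from 28.1 to 53.3 with a median of 35.5 and from 33.8 to 218 with a median of 96.1. Both diets had higher medians at the end of Period 2, with overlap between the periods. Of the 3 members that were lower over time in ADLIB bulls, 2 were those with separate high and low bulls.

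**Figure D4:**
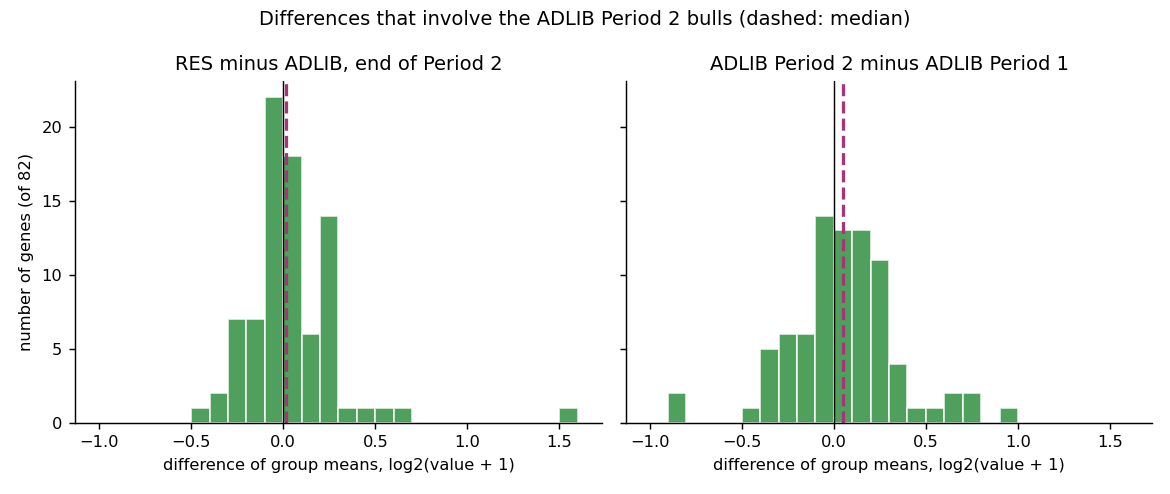
Number of members by the log2 difference of group means, for RES minus ADLIB bulls at the end of Period 2 on the left and for ADLIB bulls at the end of Period 2 minus the end of Period 1 on the right, with the median dashed. The left panel centres on 0.02 with 53 of 82 members within 0.2 of 0, and the right panel on 0.05 with 46 within 0.2 of 0.

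The difference between the diets in the change over time (RES change minus ADLIB change) ran from -0.04 to 2.35 with a median of 0.60, beside 0.0031 over all genes. It was above 0 in 81 members. With limma over all 4 groups 0 members were called and 35 had an unadjusted p below 0.05, beside 0.0239% of 12543 genes called and 4.78% at the unadjusted p in either direction. DESeq2 and the quasi-likelihood test called 0, beside 0.0319% and 0.0159% of all genes. Of the 4 group means in this contrast 3 were used to choose the members, so it too is a description.

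Deviations of each bull from its group mean were not used by the rule. Over all 38 bulls, the median Pearson r between the deviations of 2 members was 0.08 over 3321 pairs, beside -0.004 over pairs of all genes, and 6.47% of the pairs had an r above 0.5, beside 2.29%. In the 10 ADLIB Period 2 bulls alone the median was 0.15, beside -0.002, and 18.6% of the pairs had an r above 0.5, beside 10.3%. The points share library, depth and RNA preparation, and these values are a description.

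Within the members, smaller sets were formed by how the genes varied together. In the 28 bulls of the other 3 groups, average linkage on 1 minus r with a limit of 0.5 gave 3 sets of at least 5 members, which together held 26 of the 82. The largest had 10 members with a median r of 0.67 in these 28 bulls, and 0.76 in the 10 ADLIB Period 2 bulls that did not define it. The second had 9 members, with 0.64 and 0.74, and the third 7 members, with 0.62 and 0.51, among them ENSBTAG00000015129. The values in the 28 bulls follow from the limit that formed the sets and are no result. In ADLIB Period 2 bulls the median r with members outside the set was 0.17, 0.08 and -0.18. Single pairs within a set ran there from -0.11 to 0.99, from 0.44 to 0.93 and from -0.24 to 0.95. The correlation of the largest set in ADLIB Period 2 bulls rested on 1 bull, since it was 0.32 without ADLIB Period 2 replicate 9. Leaving out any one ADLIB Period 2 bull gave 0.62 to 0.80 in the second set and 0.41 to 0.66 in the third.

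The 3 sets had different median differences, and these were not tested against each other. In the set of 10 members the median differences were -0.50 (R1 minus C1), 0.78 (R2 minus R1) and 0.22 (RES minus ADLIB at the end of Period 2), and 7 of the 10 were among the 26 of 82 members called in RES bulls over time (0.822% of all genes), the contrast that chose the members. The mean of the 10 members ran from 3.98 to 5.63 in ADLIB and from 3.49 to 4.97 in RES bulls at the end of Period 1, and from 3.47 to 5.35 in ADLIB and from 4.68 to 5.32 in RES bulls at the end of Period 2. The SDs of C1, R1, ADLIB Period 2 and R2 bulls were 0.57, 0.47, 0.53 and 0.22, and that of the ADLIB Period 2 bulls was 0.22 without replicate 9. In the set of 9 members the median differences were -0.49, 0.43 and 0.0017. In the set of 7 members they were -0.69, 0.54 and 0.01. In RES bulls over time 1 of the 9 and 0 of the 7 were called, from which nothing is read.

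Of the 3 sets, the one with 7 members had the widest spread between bulls of one group. Its mean ran from 2.33 to 4.50 in ADLIB and from 1.64 to 3.62 in RES bulls at the end of Period 1, and from 2.18 to 3.97 in ADLIB and from 1.96 to 4.11 in RES bulls at the end of Period 2, with SDs of 0.67 to 0.81. In RES Period 1 bulls 6 of 9 lay below every ADLIB Period 1 bull, while the other 3 lay among the higher ADLIB bulls. The set of 9 members had means from 2.85 to 3.95, from 2.18 to 3.41, from 2.72 to 4.18 and from 3.09 to 3.79 in ADLIB Period 1, RES Period 1, ADLIB Period 2 and RES Period 2 bulls, and 3 of the 9 RES Period 1 bulls lay below every ADLIB Period 1 bull.

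**Figure D5:**
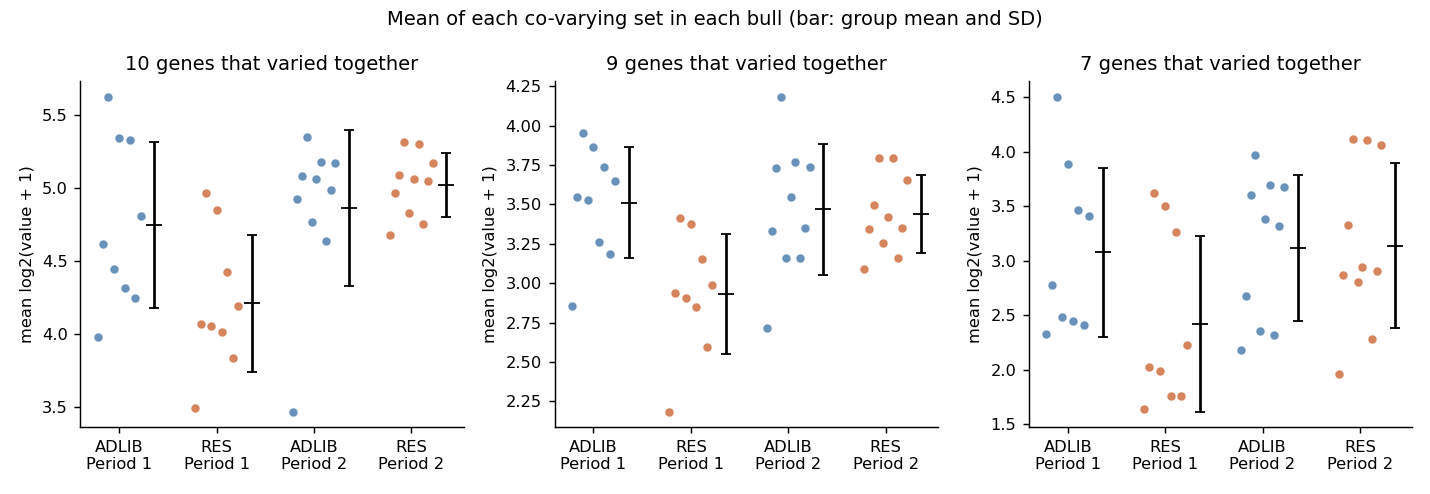
Mean log2(value + 1) of the members in each of the 3 sets that varied together, by bull and group, with the group mean and SD beside the points (n = 9 in each Period 1 group and n = 10 in each Period 2 group). In the left panel 1 ADLIB Period 2 bull lies at 3.47 with the next at 4.64, and in the right panel 6 of the 9 RES Period 1 bulls lie below every ADLIB Period 1 bull.

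The list of members depended on single bulls. When each of the 28 bulls of the 3 groups was left out in turn, 74 to 109 genes met the thresholds, and 42 of the 82 members met them every time. The highest number was reached without RES Period 1 replicate 4, the bull with the highest score in its group (3.30).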

How the data were processed

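Per the labels and the methods of the study, total RNA was made into single-end libraries, reads were aligned with Bowtie to UMD3.1 and counted with HTSeq on an Ensembl annotation, and genes with low counts were removed by the authors. The deposited values are a signal per gene, found here to be CPM on library sizes scaled by TMM separately in each period. Whole reads were recovered in 100% of values (within 0.01 of a read), from 5948453 to 11957654 per sample, and 3 reads correspond to values of 0.223 to 0.640. Limits of this kind cover counting error only.

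The members and lists were chosen with earlier results of these data known. Groups were read from the labels. limma 3.58.1 (lmFit, eBayes with trend, two-sided, R 4.3.3) was run on log2(value + 1) after TMM scaling over the samples of each fit and filterByExpr (edgeR 4.0.16), with Benjamini-Hochberg adjustment over all genes tested and a threshold of 0.05. All 82 members passed the filter. DESeq2 1.42.0 and edgeR tests on recovered reads, other scalings, pseudocounts, filters, covariates, a replicate block and the omission of each bull were alternatives. In simulated data for RES against ADLIB at the end of Period 1 (12576 genes), limma recovered 132 of 198 changed genes, 45 of 99 at a log2 change of 0.5 and 87 of 99 at 1, with 6 false calls. The changed genes were drawn at random from all listed genes. The median within-group SD was 0.26 over all genes and 0.53 over the members. Recovery among genes as variable as the members was not counted separately, so it cannot be read from these numbers.

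Members were to be named by the size of the smaller difference among genes with a symbol, by lists of pathway and marker genes, by nearness to the thresholds and by level. As 0 of 12802 identifiers were paired with a symbol, all lists and promoter searches were void and 4 identifiers are named, 2 by the size of the smaller difference and 2 after their values were seen. Descriptive tables came from pandas 2.3.3 and scipy 1.17.1 (Python 3.11.15), and plots from matplotlib 3.10.9.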

Additional observations from a re-analysis of the deposited data

Results flagged for a closer look

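Of 32 groups of values examined for a bull far from the others (the 4 named genes, the score over all members and the means of the 3 sets, each in 4 groups), 1 had such a bull. In the mean of the set of 10 members, ADLIB Period 2 replicate 9 lay at 3.47 and the next bull of its group at 4.64, a gap of 0.621 of the range of the group, above the limit of 0.466 for 10 bulls. By chance about 1 in 20 groups is expected to have a bull beyond the limit. The same bull had the lowest score over all members in its group (3.38), and the correlation of this set within the group was given with and without it.

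Across single members, a bull stood apart in 6 of 82 members among ADLIB Period 1 bulls, in 7 among RES Period 1 bulls, in 9 among ADLIB Period 2 bulls and in 4 among RES Period 2 bulls, 26 of 328 in all, where 1 in 20 is expected by chance.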

How the results depend on the processing

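No member was called in RES against ADLIB at the end of Period 2 or in the difference between the diets over time under any alternative run. The edgeR exact test was not run for the difference between the diets over time, since it compares a pair of groups. In RES against ADLIB at the end of Period 1, 0 members became 12 with DESeq2 and 11 with the edgeR exact test, and 0 to 1 when a bull was left out. The 1 was found without ADLIB Period 1 replicates 3, 4 or 7 or RES Period 1 replicates 2 or 8. Beside it, 3, 13, 2, 2 and 5 of all genes were called in either direction, and 2, 3, 1, 1 and 2 as lower. In RES bulls over time, 26 members became 42 with DESeq2 and 41 with the exact test. They became 17 when all 4 groups were fitted together and 16 when the library digit was a covariate. Under these 4 alternatives the calls over all genes in either direction went from 204 to 456, 313, 138 and 103. Those called higher, the direction of the members, went from 103 to 218, 143, 72 and 54. When a bull was left out, 20 to 31 members were called. Beside them, 155 of all genes (79 higher) were called at the lowest count and 286 (142 higher) at the highest. In ADLIB bulls over time, 0 became 1 with DESeq2 and 1 with the exact test, and was 0 without any one bull. The number of members was 82, and became 161 with a pseudocount of 0.1, 197 with thresholds of 0.3 and 43 with thresholds of 0.5, 83 with TMM over all 38 samples and 109 with group medians, of which 59 were among the 82. The causes were not tested.

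Replicate numbers showed no clear pairing of the bulls. In RES against ADLIB at the end of Period 1 the mean correlation of same-numbered deviations was 0.12, beside -0.014 for other numbers. It ran from -0.23 to 0.71, and 2 of 9 numbers matched best with their own. In the other comparisons the same-numbered means were 0.03, -0.004 and 0.03. Whether the numbers follow the weight and age blocks of the study is not given. With the replicate block, 0, 19, 0 and 0 members were called in the 4 comparisons in the order of the report. Beside them, 2, 119 (52 higher), 0 and 0 of all genes were called in either direction. In the difference between the diets 0 members were called, beside 1 of all 12543 genes. The median differences in the 4 comparisons were -0.55, 0.64, 0.02 and -0.00046. The block also leaves out Period 2 replicate 10 in the comparisons over time, which has no partner. Without this bull and with no block, 22 members were called in RES bulls, beside 149 of all 12517 genes in either direction (76 higher). The median in ADLIB bulls was the same -0.00046. In RES bulls 81 members were tested with the block and without this bull.

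Directions of small differences in named genes were not stable. For ENSBTAG00000013831 the RES minus ADLIB difference at the end of Period 2 (-0.03) was 0.27 with the quasi-likelihood test, 0.27 with DESeq2, 0.27 with the exact test and -0.26 to 0.29 without one bull, and the ADLIB difference over time (-0.22) was 0.0043 with the library digit and -0.41 to 0.081 without one bull. For ENSBTAG00000015129 these differences were -0.15 to 0.38 and -0.15 to 0.36 without one bull. The median differences moved by less than the SD of the score between bulls (0.17) under all alternatives, although those at the end of Period 2 (-0.01 to 0.06 without one bull) and in ADLIB bulls over time (-0.00046 to 0.10) changed sign when single bulls were left out.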
